A study of Mus musculus with 8 samples.

Results

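The 10 genes described here are those of hepatic bile acid production: 4 cytochrome P450 enzymes (Cyp7a1, Cyp7b1, Cyp8b1 and Cyp27a1), the reductase Akr1d1, the conjugating enzymes Slc27a5 and Baat, the uptake transporter Slc10a1, and the nuclear receptors Nr1h4 and Nr0b2. They were chosen by gene symbol and make up 10 of the 19348 genes in the deposited tables. RNA-seq was done on a piece of liver and of eWAT, the fat pad beside the epididymis, from male C57BL/6 mice on a normal diet, 12 weeks old and fasted for 16 h before death. In each tissue 2 libraries were labelled Crtc1-/- (KO-labelled below) and 2 were labelled Crtc1+/+ (WT-labelled), 8 libraries in all, and the study describes the replicates of a group as independent and biological. The labels do not say if a liver and an eWAT library share a mouse. Crtc1-/- mice carry a germline CRISPR/Cas9 deletion aimed at exons 2 and 4 of Crtc1, a coactivator of the transcription factor CREB. It is described as a whole-body deficiency, not limited to a cell type, and wild-type littermates of the crosses served as controls. The study asked what loss of Crtc1 did to the transcriptomes of the 2 organs.

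Bile acids are made from cholesterol in hepatocytes. In the classic route CYP7A1, the rate-limiting enzyme, adds a hydroxyl group to cholesterol, while in the alternative route CYP27A1 acts first and CYP7B1 follows. CYP8B1 directs the product toward cholic acid, AKR1D1 reduces the steroid ring, SLC27A5 and BAAT couple the acid to an amino acid, and SLC10A1 (NTCP) brings bile acids back from portal blood. Bile acids activate FXR, encoded by Nr1h4, which induces Nr0b2 (SHP), and SHP represses Cyp7a1 and Cyp8b1 through factors that include LRH-1 (NR5A2).

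Promoter sequence is shown for Nr0b2 and Cyp8b1, which are at the repressor and target ends of that feedback, so that the letters near their start sites can be read beside the counts. Each window holds the 250 bases before the start site, 5′ to 3′ on the strand of the gene, from RefSeq on GRCm38.p6. Nr0b2 lies on the plus strand, with its window at chr4:133553126-133553375, and Cyp8b1 lies on the minus strand, with its window at chr9:121916306-121916555. Capitals mark a match to CAAGGNCA, letters close to the extended half-site that LRH-1 binds.
Nr0b2: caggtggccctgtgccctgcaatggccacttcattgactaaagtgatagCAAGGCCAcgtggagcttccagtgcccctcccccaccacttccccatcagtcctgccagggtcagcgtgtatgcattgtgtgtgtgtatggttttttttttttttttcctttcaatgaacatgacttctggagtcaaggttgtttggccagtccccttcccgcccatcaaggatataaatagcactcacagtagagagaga
Cyp8b1: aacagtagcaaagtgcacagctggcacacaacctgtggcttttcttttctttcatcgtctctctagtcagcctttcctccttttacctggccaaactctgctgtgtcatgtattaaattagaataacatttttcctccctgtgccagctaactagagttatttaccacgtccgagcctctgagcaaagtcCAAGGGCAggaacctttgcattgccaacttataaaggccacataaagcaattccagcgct

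The match begins at position -201 from the start site of Nr0b2 and at -60 from that of Cyp8b1. Among the 10 genes, 6 had a window in the RefSeq table, in 7 windows, since Slc10a1 had more than 1. CAAGGNCA, searched on both strands, was in 2 of these 7 and in 5.53% of all 32851 windows of the same length. The plain nuclear receptor half-site AGGTCA was in 3 of the 7 (Akr1d1, Nr1h4 and 1 window of Slc10a1) and in 14.02% of all. The cAMP response element TGACGTCA, the palindrome that CREB binds, was in 0 of the 7 and in 1.55% of all, and its half-site TGACG, which lies within it, was in 0 of the 7 and in 17.77% of all. These letters describe the windows only.

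Several libraries stood apart before any bile acid gene was considered. Totals were alike, at 16560085 to 19721481 counts. Crtc1 itself was at 11.6 and 9.61 CPM (its counts divided by the library total, scaled up) in WT-labelled liver and at 22.1 and 18.6 CPM in KO-labelled liver, and at 36.9 CPM in both WT-labelled eWAT libraries and 57.6 and 27.5 CPM in the KO-labelled pair. Both KO-labelled livers were above both WT-labelled ones, and the KO-labelled eWAT pair lay on either side of the controls (log2 fold change 0.89 and 0.48, adjusted p = 0.184 and 0.396 by edgeR). The counts are per gene, so the targeted exons cannot be read alone, and genotypes are given as labels throughout. The study itself reports a complete knockout in its Crtc1-/- mice, from genotyping and a Western blot for the protein. In WT-labelled eWAT, 12 epididymis markers, led by Gpx5, Lcn8 and Cst11, summed to 7.42% and 8.68% of counts, against 0.00224% and 0.00109% in KO-labelled eWAT, where Lcn6, Defb15, Defb41 and Spink12 were at 0 in both libraries. Conversely, 11 adipocyte markers, led by Fabp4 and Cfd, summed to 0.216% and 0.339% in WT-labelled eWAT and 3.96% and 1.82% in KO-labelled eWAT. The 13 hepatocyte markers, led by Alb, summed to 19.1% to 23.3% in liver and to 0.623%, 0.0743% and 0.112% in 3 eWAT libraries, but to 10.2% in KO-labelled eWAT replicate 2. No marker of these 13 was at 0 in any eWAT library.

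In liver, the order of the genes in WT-labelled libraries is given in FPKM, which divides by transcript length. Cyp8b1 was highest, at 568 ± 134 FPKM (SD, n = 2, as for the values that follow), then Slc10a1 at 439 ± 128, Slc27a5 at 367 ± 1.22 and Cyp27a1 at 205 ± 25.3. Baat followed at 78.5 ± 12.2, Nr1h4 at 39.9 ± 7.30 and Nr0b2 at 24.0 ± 12.1. Cyp7a1 was at 18.5 ± 1.89, Akr1d1 at 12.7 ± 5.91 and Cyp7b1, the lowest, at 6.24 ± 1.75 FPKM. Libraries of neighbours in this order overlapped for Cyp8b1 with Slc10a1, for Slc10a1 with Slc27a5 and for Nr0b2 with Cyp7a1, and not for the other neighbours.

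**Figure D1:**
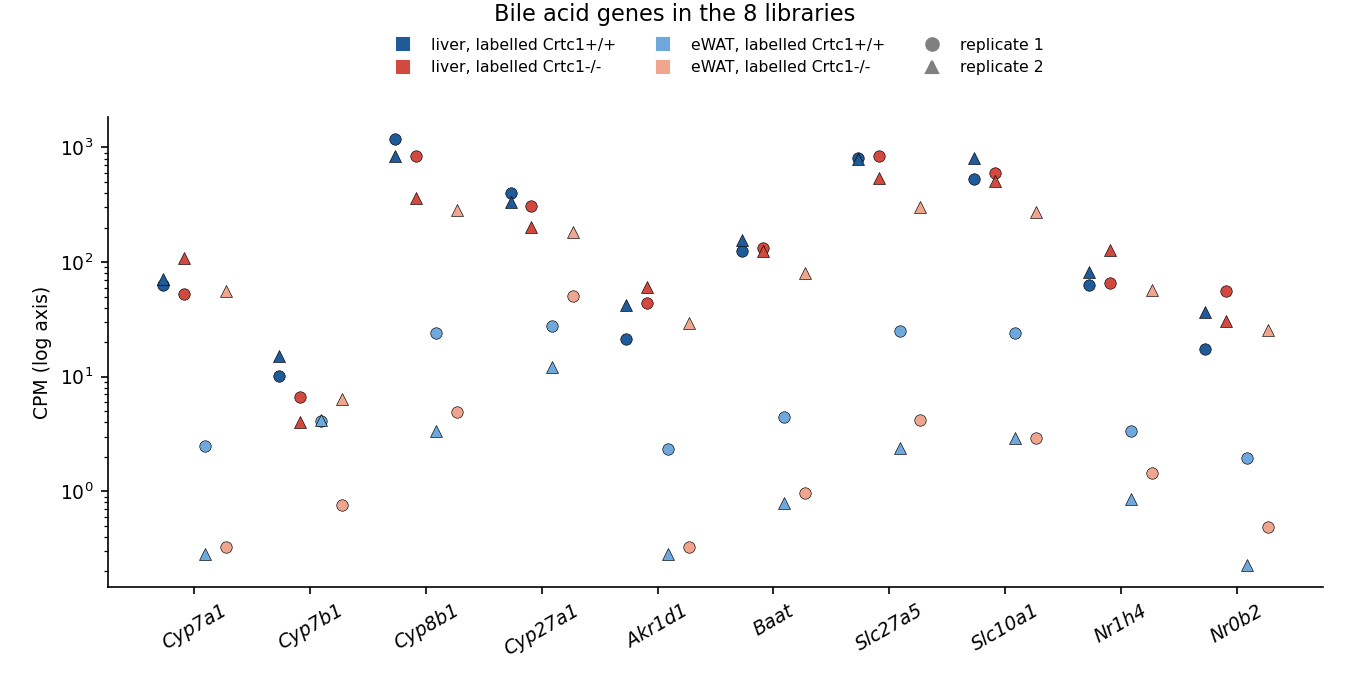
CPM of the 10 bile acid genes (log axis) in each library, by colour for tissue and labelled genotype and by shape for replicate. The 4 liver libraries lie close together for most genes, and in eWAT the triangle of KO-labelled replicate 2 lies far above the other 3 libraries for every gene but Cyp7b1 and Cyp27a1.

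Between the labelled genotypes, no bile acid gene of the liver passed an adjusted p of 0.05. By edgeR on the 4 livers, Cyp7b1 had the largest difference, 2.42-fold lower in KO-labelled libraries. Cyp8b1 and Cyp27a1 were also lower in both such libraries than in either WT-labelled one. The largest difference was that of Cyp8b1 with limma at a pseudocount of 1, and of Cyp7b1 at 0.1. It was that of Nr0b2 without replicate 2 of either label, and of Cyp7b1 without replicate 1 of either label. Akr1d1 was higher in both, and the other 6 genes overlapped between the labels. By edgeR's quasi-likelihood test, adjusted after Benjamini-Hochberg over 11707 genes, 0 of 10 were called against a background of 0.0854%. At an unadjusted p under 0.05 there was 1 of the 10, against 2029 of the 11707 genes. DESeq2 and limma also called 0. At the threshold of the study, a log2 fold change beyond 1 in either direction at p under 0.01 unadjusted, 1 of 10 (Cyp7b1) passed against a background of 4.27%. With limma, the method of the study, 0 passed at either pseudocount, and 0 passed in 1 fit of all 8 libraries. The groups did not overlap for 4 of 10 against a background of 51.4%, so separation of the groups was not more common here than among all genes. The log2 fold changes of the 10 had a median of -0.22, with 4 above and 6 below 0, and the median of all genes was 0.00. Within 1 bulk piece of tissue, fewer cells of a type and less RNA per cell cannot be told apart.

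The enzymes of the alternative route both had lower values under the KO label, without passing the adjusted test. Positions are on GRCm38.p6. Cyp7b1, the oxysterol hydroxylase (NCBI Gene 13123, chromosome 3, 18071944 to 18243890), was at 10.1 and 15.1 CPM in WT-labelled liver and 6.68 and 4.05 CPM in KO-labelled liver. Both KO-labelled libraries were below both WT-labelled ones, and the log2 fold change was -1.28 ± 0.35 (SE, adjusted p = 0.162 by edgeR's quasi-likelihood test). Its 95% interval ran from -2.07 to -0.48. Cyp27a1, the mitochondrial sterol hydroxylase (NCBI Gene 104086, chromosome 1, 74713148 to 74737897), was at 399 and 334 CPM under the WT label and 308 and 204 CPM under the KO label, again without overlap. Its log2 fold change was -0.57 ± 0.29 (SE, adjusted p = 0.338).

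In the classic route the fold changes of the rate-limiting step and the branch point lay on different sides of 0, and neither passed the test. Cyp7a1 (NCBI Gene 13122, chromosome 4, 6265612 to 6275632) was at 62.8 and 71.6 CPM in WT-labelled liver and 52.3 and 108 CPM in KO-labelled liver. The latter pair lay on either side of the controls, and the log2 fold change was 0.19 ± 0.34 (SE, adjusted p = 0.798 by edgeR, 95% interval -0.56 to 0.94). Cyp8b1 (NCBI Gene 13124, chromosome 9, 121914356 to 121916305) was at 1194 and 849 CPM under the WT label and 837 and 363 CPM under the KO label. The groups did not overlap, with the nearest libraries at 849 and 837 CPM, and the log2 fold change was -0.81 ± 0.39 (SE, adjusted p = 0.315, 95% interval -1.69 to 0.07). Akr1d1 (NCBI Gene 208665, chromosome 6, 37529978 to 37574921) was at 21.1 and 42.5 CPM under the WT label and 44.0 and 60.4 CPM under the KO label (log2 fold change 0.65 ± 0.35 SE, adjusted p = 0.357).

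Set within each library, so that scaling drops out, there were 19.0 and 11.9 Cyp8b1 counts for each Cyp7a1 count in WT-labelled liver, and 16.0 and 3.36 in KO-labelled liver. The ratio of KO-labelled replicate 1 was thus between the controls, and only replicate 2 was lower. In that library Cyp8b1, Cyp27a1, Cyp7b1, Slc27a5, Slc10a1 and Baat were at their lowest of the 4 livers and Cyp7a1, Nr1h4 and Akr1d1 at their highest. Without KO-labelled replicate 1, which leaves that library alone for its label and takes its spread from the controls, 3 of the 10 genes were called: Cyp8b1 at -1.56 (adjusted p = 9.80e-05), Cyp7b1 at -1.71 (adjusted p = 0.000664) and Cyp27a1 at -0.91 (adjusted p = 0.0277), all on the log2 scale and by edgeR. That fit called 12.5% of all genes, against 0.0854% with all 4 libraries. Without replicate 2 the count was 0, Cyp8b1 was at -0.33, Cyp7b1 at -0.96 and Cyp27a1 at -0.29, and Cyp7a1 (-0.40), Nr1h4 (-0.19) and Slc27a5 (0.044) changed sign.

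**Figure D2:**
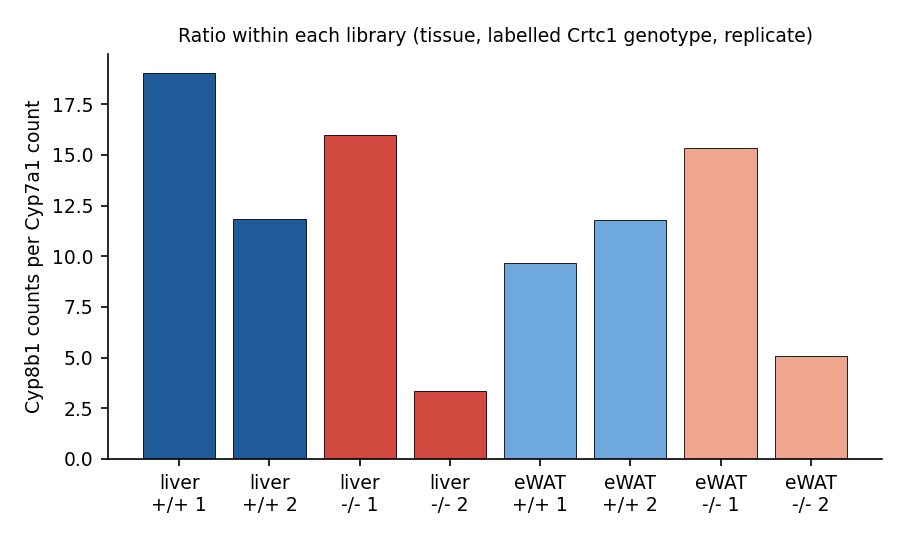
Counts of Cyp8b1 per count of Cyp7a1 within each library, with bars from 0 and 1 bar per library (tissue, labelled Crtc1 genotype, replicate). KO-labelled liver replicate 2 (3.36) and KO-labelled eWAT replicate 2 (5.07) are the lowest of the 8, and the eWAT ratios of WT-labelled replicate 2 and KO-labelled replicate 1 rest on 5 and 6 counts of Cyp7a1.

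The genes of conjugation and uptake had small differences. Slc27a5 (NCBI Gene 26459, chromosome 7, 12988346 to 12998192), the bile acid CoA ligase, was at 802 and 797 CPM in WT-labelled liver and 848 and 544 CPM in KO-labelled liver (log2 fold change -0.25 ± 0.29 SE, adjusted p = 0.678 by edgeR). Baat (NCBI Gene 12012, chromosome 4, 49489416 to 49507915), which joins the CoA ester to taurine or glycine, was at 126 and 157 CPM and at 133 and 126 CPM (log2 fold change -0.19 ± 0.26 SE, adjusted p = 0.733). Slc10a1 (NCBI Gene 20493, chromosome 12, 80953185 to 80968705) was at 533 and 806 CPM and at 600 and 510 CPM (log2 fold change -0.32 ± 0.29 SE, adjusted p = 0.578). The groups overlapped for these genes, and their 95% intervals ran from -0.90 to 0.40, from -0.76 to 0.39 and from -0.97 to 0.32. Without WT-labelled replicate 2 the log2 fold change of Slc10a1 was 0.0071.

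The receptors overlapped as well. Nr1h4 (NCBI Gene 20186, chromosome 10, 89454234 to 89533645) was at 63.7 and 82.7 CPM in WT-labelled liver and 65.9 and 128 CPM in KO-labelled liver (log2 fold change 0.34 ± 0.33 SE, adjusted p = 0.617 by edgeR). Nr0b2 (NCBI Gene 23957, chromosome 4, 133553376 to 133556686), which FXR induces, was at 17.5 and 36.7 CPM and at 56.0 and 30.7 CPM (log2 fold change 0.63 ± 0.40 SE, adjusted p = 0.435). The receptors did not keep a fixed ratio across the livers. Nr0b2 counts per Nr1h4 count were 0.275 and 0.444 under the WT label and 0.850 and 0.241 under the KO label. The library with the highest Nr1h4, KO-labelled replicate 2, had the lowest of these ratios.

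**Figure D3:**
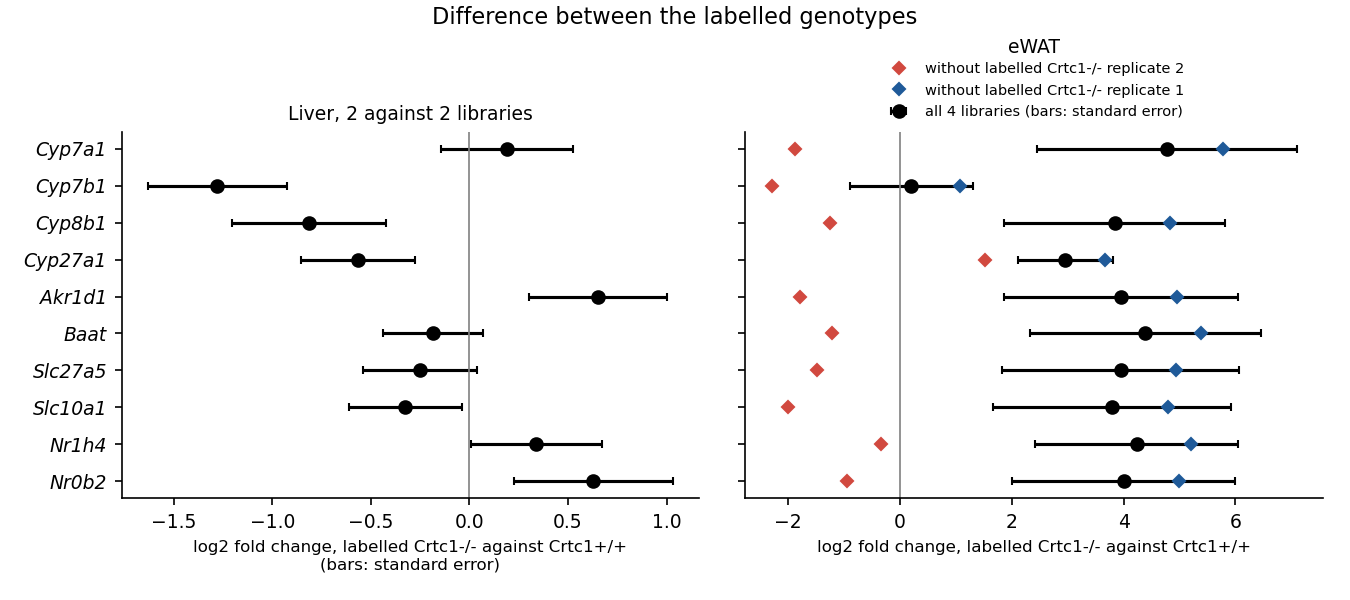
Log2 fold change of labelled Crtc1-/- against labelled Crtc1+/+ for each gene in liver (left) and eWAT (right), with standard errors, from edgeR. In liver Cyp7b1 lies farthest from 0, and in eWAT the red diamonds, fitted without KO-labelled replicate 2, lie below 0 for all genes but Cyp27a1 while the blue ones, without replicate 1, lie above 0.

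Cyp7b1 is more abundant in male than in female mouse liver, so the lists of sex-biased liver genes were read beside it. The lists were chosen with earlier results of these data known. By edgeR 0.0854% of all genes were called in liver. Of 10 male-biased genes, 9 had lower values in KO-labelled liver, with a median log2 fold change of -1.70, and 2 were called lower: Mup7, a major urinary protein, at -5.80 (adjusted p = 0.0493) and the fatty acid elongase Elovl3 at -4.21 (adjusted p = 0.0418), both by edgeR. Of 11 female-biased genes tested, all 11 had higher values, with a median of 3.40, and 3 were called higher: the sulfotransferase Sult2a2 at 7.82 (adjusted p = 0.0418) and the cytochromes P450 Cyp3a41a at 6.36 (adjusted p = 0.0418) and Cyp2b13 at 5.30 (adjusted p = 0.0332). The male-biased genes summed to 0.508% and 0.571% of counts under the WT label and 0.210% and 0.169% under the KO label. The female-biased genes summed to 0.0193% and 0.0126% under the WT label and 0.0480% and 0.128% under the KO label. All 5 of these calls were lost with limma at either pseudocount and in 1 fit of all 8 libraries, 2 were lost with DESeq2, and 1 was left without WT-labelled replicate 2. Mup7, Sult2a2 and Cyp3a41a have near-identical copies, so the division of reads among copies is uncertain. The part of this shift in the values of Cyp7b1 was not tested.

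**Figure D4:**
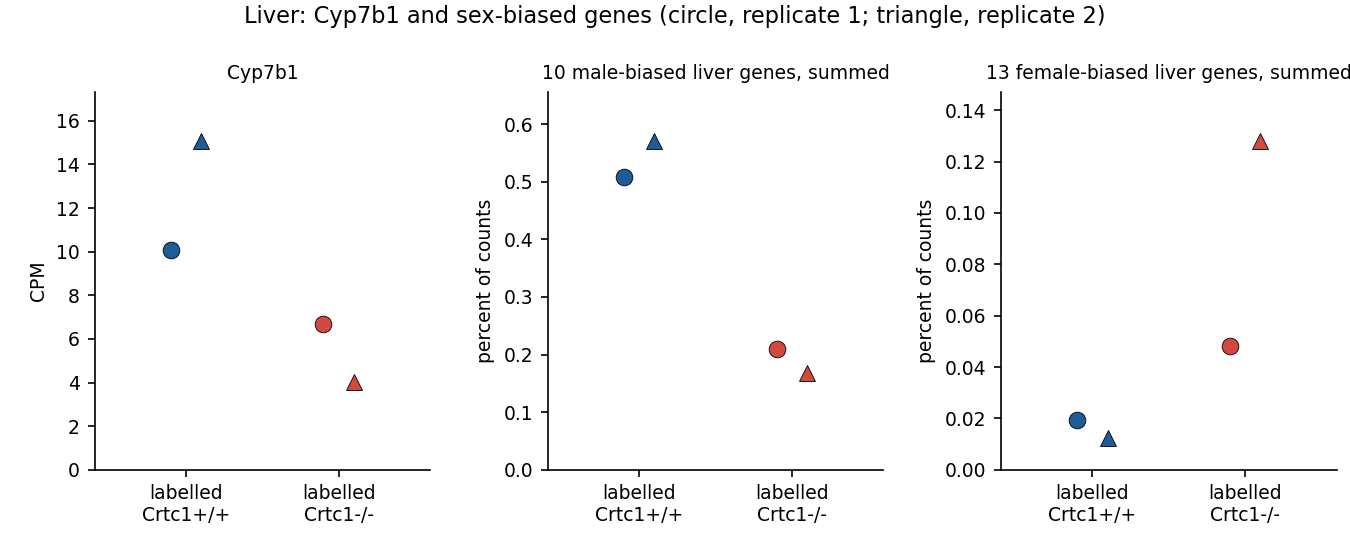
Liver libraries by labelled genotype, each point 1 library, with Cyp7b1 in CPM (left) and the summed male-biased (middle) and female-biased (right) liver genes as percent of counts, all axes from 0. Both KO-labelled libraries are below the controls for Cyp7b1 and the male-biased sum and above them for the female-biased sum.

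Other genes of the pathway in liver gave few differences. Of 9 other synthesis enzymes tested, 8 were below 0 and 1 above, with a median log2 fold change of -0.56, 0 called by edgeR and 1 at an unadjusted p under 0.05. That gene was Cyp2c70, which makes the muricholic acids of mice, at 26.2 and 61.9 CPM under the WT label and 104 and 118 CPM under the KO label (log2 fold change 1.28, adjusted p = 0.179). Of 12 transporters, 8 were below 0, with a median of -0.33, 0 called and 5 at an unadjusted p under 0.05. Over all genes in liver, 2029 of 11707 were under that p. The sinusoidal anion transporter Slco1a1, also on the male-biased list, was at -2.25 (adjusted p = 0.121) and its relative Slco1a4 at 1.31 (adjusted p = 0.178). Of 12 regulators, 9 were below 0, with a median of -0.08 and 0 called. The regulator farthest from 0 was Klb, the FGF coreceptor through which the gut signal FGF15 represses Cyp7a1, at 8.62 and 12.3 CPM under the WT label and 5.36 and 3.86 CPM under the KO label (log2 fold change -1.23, adjusted p = 0.159), the only 1 of the 12 at an unadjusted p under 0.05.

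Across organs, all 10 genes were lower in eWAT than in liver within the WT label. These eWAT libraries held epididymis markers at 7.42% and 8.68% of counts, against adipocyte markers at 0.216% and 0.339%. Their hepatocyte markers summed to 0.623% and 0.0743% of counts. The part of this tissue content in the contrast was not tested. By edgeR's quasi-likelihood test all 10 were called, against a background of 54.9%, with log2 fold changes from -7.61 for Cyp8b1 (adjusted p = 0.0214) to -3.0 for Cyp7b1 (adjusted p = 0.0323) and a median of -6.74, where the median of all 15587 genes was 0.61. Cyp27a1, at -5.60 (adjusted p = 0.00339), was the next smallest. Several eWAT values rest on few reads: Cyp7a1 and Akr1d1 had 5 counts each in WT-labelled replicate 2, and Nr0b2 had 4. Cyp7b1 was no longer called under library-size scaling, at -1.60 (adjusted p = 0.110), a scaling that moved the median of all genes from 0.61 to 2.0. Leaving out WT-labelled replicate 1 or 2 of either tissue left 1 of the 10 called, where those fits called 26.0% to 36.9% of all genes. Leaving out a KO-labelled liver library left 4, where 46.4% or 46.5% of all genes were called. All 10 were below 0 each time.

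In eWAT, all 10 fold changes were above 0 in KO-labelled libraries, but 1 library carried them for every gene except Cyp27a1. Cyp7a1 was at 2.51 and 0.284 CPM under the WT label and at 0.324 and 55.7 CPM under the KO label. Cyp8b1 was at 24.3 and 3.35 CPM and at 4.97 and 283 CPM, and Slc10a1 at 24.3 and 2.89 CPM and at 2.92 and 271 CPM. In each case KO-labelled replicate 1 lay within the range of the controls, and replicate 2 lay far above it. The same held for Slc27a5 (25.3 and 2.38 CPM, then 4.22 and 305 CPM) and Baat (4.48 and 0.795 CPM, then 0.973 and 79.7 CPM). It held too for Akr1d1 (2.35 and 0.284 CPM, then 0.324 and 29.5 CPM). Nr1h4 was at 3.39 and 0.851 CPM and at 1.46 and 57.1 CPM, and Nr0b2 at 1.97 and 0.227 CPM and at 0.486 and 25.4 CPM, so the receptors showed the same split.

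With all 4 libraries the log2 fold changes ran from 0.20 for Cyp7b1 to 4.78 for Cyp7a1, with a median of 3.95 where the median of all genes was -0.05. By edgeR 0 of 10 were called against a background of 12.2%. At an unadjusted p under 0.05 there was 1 of the 10, against 5130 of all 15391 genes. Limma called 0 and DESeq2 called 3, in a fit that called 30% of all genes. The number past the threshold of the study was 0, against a background of 15.9%. The groups did not overlap for 1 of 10, Cyp27a1, against a background of 65.0%. Without KO-labelled replicate 2, 9 of the 10 were below 0, with a median of -1.37 and 0 called. Without replicate 1, all 10 were above 0, with a median of 4.95, and 9 were called, all but Cyp7b1, where that fit called 19.0% of all genes. As given above, hepatocyte markers summed to 10.2% of counts in replicate 2 and 0.112% in replicate 1.

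Hepatocyte marker content was measured against each gene by expressing its eWAT level as a percentage of the mean level in liver of the same labelled genotype. In KO-labelled replicate 2 the 13 markers were at 37.5% to 81.2% of liver, with a median of 48.5%, and the 10 bile acid genes at 43.9% to 120%, with a median of 58.7%. Of the 10, 9 lay within the marker range, from Slc27a5 at 43.9% to Cyp27a1 at 72.1%, and Cyp7b1 lay above it at 120%. That excess depends on the reference. Against the mean of WT-labelled liver, Cyp7b1 in this library was at 50.9% and the summed markers were at 52.2%. The 10 genes then ran from 27.7% for Cyp8b1 to 93.6% for Nr0b2. In WT-labelled replicate 1 the markers were at 1.84% to 7.52%, and 8 of the 10 genes lay within that range. In WT-labelled replicate 2 and KO-labelled replicate 1 the markers were at 0.271% to 0.714% and at 0.437% to 0.983%, with 5 of the 10 genes within the range in each. With liver of the same label as reference, Cyp7b1 lay above the marker range in all 4 libraries and Cyp27a1 in 3. The others outside it were Nr1h4 and Nr0b2 in both of the last libraries named, at 0.838% to 1.51%, Akr1d1 in the former at 0.892%, and Cyp7a1 in the latter, below the range at 0.405%. The source of the hepatocyte transcripts was not tested.

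**Figure D5:**
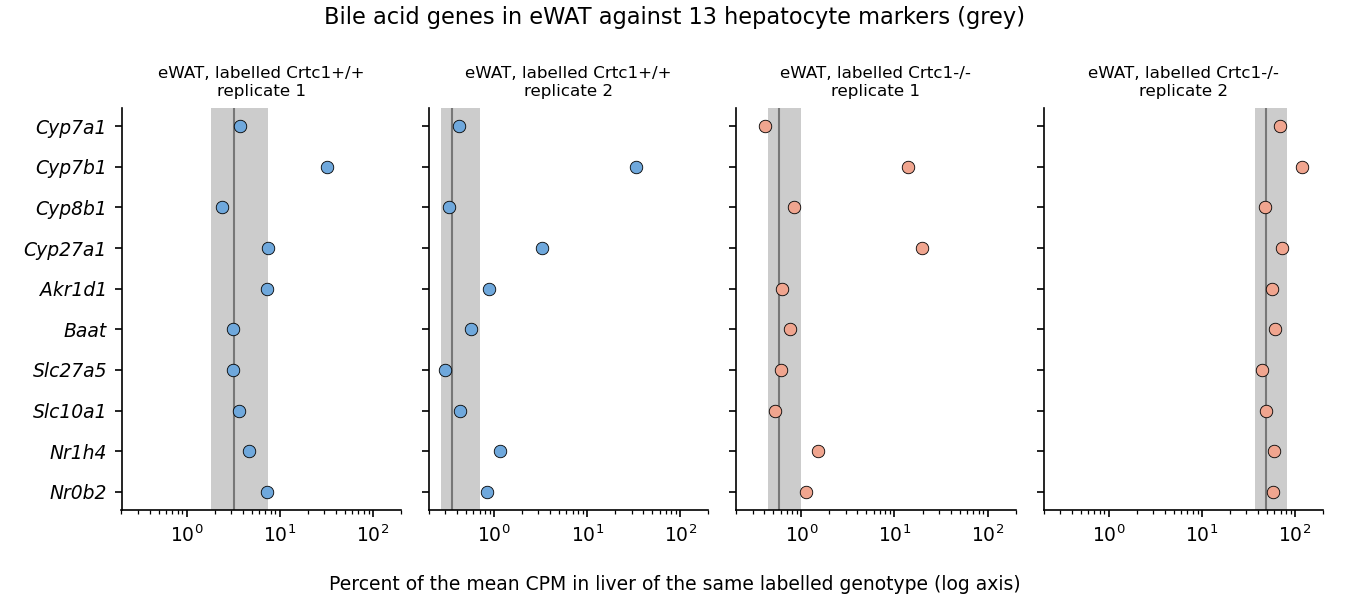
Level of each gene in each eWAT library as percent of the mean CPM in liver of the same labelled genotype (log axis), with the range of 13 hepatocyte markers in grey and their median as a line. Most genes lie in or beside the grey band as it moves from under 1% in the middle panels to between 37.5% and 81.2% in the right one, while Cyp7b1 lies to its right in all 4 libraries and Cyp27a1 in 3.

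Cyp27a1 was the one gene whose KO-labelled eWAT libraries were both above the controls. It was at 27.7 and 12.1 CPM in WT-labelled eWAT and 50.5 and 184 CPM in KO-labelled eWAT (log2 fold change 2.96 ± 0.84 SE, adjusted p = 0.0834 by edgeR). Without the library rich in hepatocyte markers it was 1.52 (adjusted p = 0.134). As a share of liver it was at 7.57% and 3.31% under the WT label and 19.7% in KO-labelled replicate 1, against the highest hepatocyte marker at 7.52%, 0.714% and 0.983% in the same libraries. CYP27A1 is also made outside the liver, macrophages included. The 8 macrophage markers summed to 0.0224% and 0.0103% of counts in WT-labelled eWAT and 0.0736% and 0.0382% in KO-labelled eWAT, and the adipocyte and epididymis markers moved with the label as given above. Their part in the value of Cyp27a1 was not tested.

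Cyp7b1 in eWAT was highest in the library rich in hepatocyte markers and lowest in the other KO-labelled one. It was at 4.10 and 4.20 CPM under the WT label and 0.757 and 6.41 CPM under the KO label, so the controls lay between the KO-labelled libraries, and the log2 fold change was 0.20 ± 1.09 (SE, adjusted p = 0.908 by edgeR). That sign flipped to -0.21 with library-size scaling and to -0.0074 with upper-quartile scaling, where all genes had a median of -0.35 and -0.25 in place of -0.05. Without KO-labelled replicate 2 it was -2.30 (adjusted p = 0.202). The WT-labelled pair stood at 32.6% and 33.4% of liver, and KO-labelled replicate 1 at 14.1%. There were 1.63 and 14.8 Cyp7b1 counts per Cyp7a1 count in WT-labelled eWAT, where liver under the same label had 0.161 and 0.210, and the larger eWAT value rests on 5 counts of Cyp7a1. Epididymis markers were also high in the WT-labelled pair, and their part was not tested.

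The change of the genotype difference from liver to eWAT was tested in 1 fit of all 8 libraries. All 10 interaction terms were above 0, with a median of 4.01 where all genes had -0.21, but by edgeR 0 of 10 were called, against a background of 6.94%. At an unadjusted p under 0.05 there was 1 of the 10, against 4193 of all 15587 genes. DESeq2 called 1, with 14.9% of all genes, and limma 0. Cyp27a1 had the smallest p, with an interaction of 3.50 on the log2 scale (adjusted p = 0.0994), and Cyp7b1 had the smallest term, 1.47 (adjusted p = 0.487). Without KO-labelled eWAT replicate 2, 9 of the 10 terms were below 0, with a median of -1.22 and 0 called, and without replicate 1 all 10 were called, in a fit that called 13.9% of all genes.

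Other genes of the pathway in eWAT were called in 3 cases, to be read against the background of 12.2% of all genes. Hsd3b7, the enzyme that acts after the 7alpha-hydroxylation in both routes, was at 51.7 and 52.8 CPM under the WT label and 111 and 160 CPM under the KO label. It rose by 1.72 on the log2 scale (adjusted p = 0.0477 by edgeR), 1 of 10 other enzymes tested. In liver Hsd3b7 was at 124 to 292 CPM, and its 160 CPM came from KO-labelled eWAT replicate 2, the library rich in hepatocyte markers. The part of hepatocyte content in this rise was not tested. Among 14 regulators tested, 12 were above 0 and 2 were called. Nr1h3, the oxysterol receptor LXR alpha, was at 27.3 and 16.6 CPM and at 194 and 181 CPM, a rise of 3.41 (adjusted p = 0.0170). Rxra, the partner of FXR and LXR, was at 93.2 and 80.0 CPM and at 320 and 369 CPM, a rise of 2.32 (adjusted p = 0.0251). These calls did not stand when either WT-labelled library was left out, which leaves 1 control, a loss not specific to these genes. Without WT-labelled replicate 1 and 2, the log2 fold changes were 1.72 and 1.78 for Hsd3b7, 3.80 and 3.14 for Nr1h3, and 2.44 and 2.26 for Rxra. The call of Hsd3b7 was also lost with limma, without the expression filter and under both other scalings. Without KO-labelled replicate 2 its log2 fold change was 1.23. Nr1h3 and Rxra are expressed in adipocytes, whose 11 markers all had higher values under the same label, 8 of them called. The 6 endothelial markers also had higher values, 5 of them called. They summed to 0.0220% and 0.0233% of counts under the WT label and 0.337% and 0.210% under the KO label. The part of adipocyte or endothelial content in the values of Nr1h3 and Rxra was not tested. By edgeR 5130 of all 15391 genes had an unadjusted p under 0.05. This held for 0 of the 9 transporters tested, and none of these transporters was called. Their median log2 fold change was 3.66, and 8 of the 9 were above both controls in KO-labelled replicate 2, the library rich in hepatocyte markers, and 0 of the 9 in replicate 1.

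Genes with the most similar profile were found by Pearson's r of log2 CPM over the 8 libraries, as a description. For Cyp7a1 they were Slco1b2 (r = 0.999), Fabp1 (r = 0.998) and Nr1i3 (r = 0.998), which like Cyp7a1 were high in the 4 livers and in KO-labelled eWAT replicate 2. For Cyp7b1 they were Shtn1 (r = 0.965), Aldh3a2 (r = 0.960) and Abcc3 (r = 0.956). Abcc3, an exporter of conjugated bile acids, was at 323 and 308 CPM in WT-labelled liver, 218 and 140 CPM in KO-labelled liver, 85.1 and 90.4 CPM in WT-labelled eWAT and 18.1 and 105 CPM in KO-labelled eWAT. The 8 points come from 2 tissues that lie far apart in level.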

How the data were processed

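The deposited tables gave, for 19348 genes and 8 libraries, estimated counts and FPKM made by the authors. The submitters' processing notes name HISAT, Bowtie2 and GRCm38.p6, and the counting tool and annotation are not given in the sources used here. Between 5.44% and 9.98% of a library's counts were not whole and were rounded, while those of the 10 genes were whole. The study used normalizeBetweenArrays before limma, a procedure repeated here on FPKM as an alternative.

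CPM printed here are counts scaled to the library total. Fold changes came from edgeR 4.0.16 in R 4.3.3, with filterByExpr, TMM scaling, the quasi-likelihood test and Benjamini-Hochberg adjustment over all genes tested, per tissue (genotype) or in 1 fit of all 8 libraries (interaction and tissue). Standard errors were derived from each fold change and its F statistic. A floor of 3 counts is 0.152 to 0.181 CPM. Alternatives used DESeq2 1.42.0, limma 3.58.1, other scalings and filters, a replicate block, and each library left out. Tested on simulated data with known changes, the edgeR fit recovered nearly all of them in liver, few for the interaction and none in eWAT. The eWAT fit of the real data called 1875 genes, so the simulation does not measure what that fit can detect. With 2 libraries per group, a lack of calls in eWAT does not show a lack of difference. Motifs were counted in RefSeq promoter windows. Figures used matplotlib 3.10.9.

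Groups came from the sample labels. The study states independent biological replicates, and with 2 libraries per group the p-values rest on little replication. Named were all 10 genes, Crtc1, up to 5 genes of each pathway or sex-biased list past a threshold, up to 3 leading genes of a marker list, and the 3 genes most like Cyp7a1 and Cyp7b1. The 4 epididymis markers at 0 were named after their values were seen. The genes, lists and tests were chosen with earlier results of these data known.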

Additional observations from a re-analysis of the deposited data

Results flagged for a closer look

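Of 46 genes tested in the bile acid lists, 3 regulators had a genotype difference that differed between eWAT and liver by the interaction test in edgeR with Benjamini-Hochberg adjustment: Nr1h3 (3.34 on the log2 scale, adjusted p = 0.0141), Rxra (2.64, adjusted p = 0.0348) and Klb (4.15, adjusted p = 0.0331). Over all genes 6.94% were called, so the count of 3 is near the background. All 3 calls were lost when any 1 liver library was left out, and 2 and 1 of them stood without WT-labelled eWAT replicate 1 and 2. Klb was at 1.53 and 5.62 CPM in WT-labelled eWAT and 23.8 and 22.0 CPM in KO-labelled eWAT, where liver had the opposite order. For Cyp27a1 both KO-labelled libraries were below the controls in liver and above them in eWAT, with an interaction of 3.50 that missed the threshold (adjusted p = 0.0994). Groups of 2 libraries were not searched for single samples far from the rest.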

How the results depend on the processing

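With 2 libraries per group the calls rest on little replication, and several eWAT values of these genes on few counts. A library left alone in its group was assumed to vary like the others. In liver (10 genes of all called, 0 bile acid genes), DESeq2 gave 311, limma 0 at either pseudocount, no expression filter 301, all 8 libraries in 1 fit 0, and leaving out 1 library 1 to 1507. Bile acid genes called were 1 without the filter (Cyp7b1, adjusted p = 0.0495) and 0 to 3 with a library left out. Those past the threshold of the study (1) were 0 with limma at either pseudocount and 0 in the fit of all 8, and 0 to 2 with a library left out. In eWAT (1875 of all called), DESeq2 gave 4620, the fit of all 8 gave 3861, and leaving out 1 library 0 to 3073. Bile acid genes called (0) were 3 with DESeq2, 1 in the fit of all 8, and 0 to 9 with a library left out, and past the threshold of the study (0) they were 2, 1 and 0 to 9. For the interaction (1081 of all called), DESeq2 gave 2056, limma 2533, library-size scaling 705, and leaving out 1 library 0 to 2261, and bile acid genes called (0) were 1 with DESeq2 and 0 to 10 with a library left out. For eWAT against liver (8552), leaving out 1 library gave 4285 to 8872, and 1 to 10 bile acid genes called. The cause of these moves was not tested.

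The replicate block changed the calls of all genes to 82 in liver and 0 in eWAT, and the bile acid genes called between tissues from 10 to 5, and changed no other count by over 1.5 times. It lost the 3 calls of other pathway genes in eWAT, and for the interaction that of Rxra (adjusted p = 0.0693). No label states what a replicate number shares, so the numbers were not taken to pair the samples. Same-numbered deviations correlated at 0.06 in liver and 0.01 in eWAT between the labels, and at 0.16 and 0.04 between tissues. With 2 libraries per group these values cannot exclude that libraries share a mouse.

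Of 120 fold changes of the 10 genes refitted in liver, 4 changed sign, and of 120 in eWAT, 13 did. Cyp7b1 in eWAT was -0.040 with limma at a pseudocount of 0.1, -0.21 with library-size scaling, -0.0074 with upper-quartile scaling and -0.52 with the replicate block. With 1 library left out, the ranges in liver were Cyp7a1 -0.40 to 0.61, Slc27a5 -0.62 to 0.044, Slc10a1 -0.61 to 0.0071 and Nr1h4 -0.19 to 0.73, and in eWAT Cyp7a1 -1.87 to 7.12, Cyp7b1 -2.30 to 1.08, Cyp8b1 -1.26 to 5.95, Akr1d1 -1.79 to 6.20, Baat -1.22 to 6.18, Slc27a5 -1.49 to 6.54, Slc10a1 -2.00 to 6.09, Nr1h4 -0.34 to 5.61 and Nr0b2 -0.95 to 6.31. Between tissues, 0 of 140 changed sign and 54 missed the threshold.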

Other observations

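Sex-biased liver genes, chosen after their values were seen, were read in KO-labelled eWAT replicate 2, the library rich in hepatocyte markers, beside the livers. Mup7 was at 96.9 CPM there, at 2.79 and 1.93 CPM in KO-labelled liver and at 36.4 and 219 CPM in WT-labelled liver. Elovl3 was at 7.32 CPM there, at 1.63 and 0.302 CPM in KO-labelled liver and at 17.3 and 18.3 CPM in WT-labelled liver. Sult2a1, a female-biased sulfotransferase that acts on bile acids, was at 77.6 CPM there, at 18.8 and 317 CPM in KO-labelled liver and at 0.355 and 0.0511 CPM in WT-labelled liver. Over the whole lists, 6 of 10 male-biased genes were above both KO-labelled livers in this library and 0 of 10 above both WT-labelled livers, while 8 of 13 female-biased genes were above both WT-labelled livers and 0 of 13 above both KO-labelled livers. Cyp7b1 was at 6.41 CPM there, against means of 5.36 CPM in KO-labelled liver and 12.6 CPM in WT-labelled liver.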
